A study of Mus musculus with 16 samples.

Results

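The mouse gene Rpl13a carries 4 small nucleolar RNAs (snoRNAs) in its introns, Snord32a, Snord33, Snord34 and Snord35a, and their levels are described here across blood cell populations. The members are all intervals of the deposited tables that lie inside Rpl13a on its own strand and that the annotation calls snoRNA, which gave 4 of 1885 intervals and 4 of 406 snoRNA intervals. Small RNA was sequenced from bone marrow cells of wild-type mice, sorted by surface markers. The mature populations were B, T, Myeloid (spelled Myloid in the labels) and Erythroid cells. The progenitor populations were CLP, CMP, GMP and MEP, the usual abbreviations for the common lymphoid, common myeloid, granulocyte-monocyte and megakaryocyte-erythrocyte progenitors. Each of the 8 populations had 2 libraries, 16 in all, and none carried a mutation or a treatment. The labels used here give neither strain, age nor sex. Nor do they tie a library to an animal, so the p-values rest on the scatter of 2 libraries that may be technical repeats.

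SnoRNAs of the C/D box class guide the 2′-O-methylation of ribosomal RNA: bases next to the D box, or to a second copy of it, pair with the target site while the C and D boxes are bound by the methylating protein complex. Most mammalian snoRNAs are cut out of introns, and hosts are often genes of ribosomal proteins. Rpl13a encodes a protein of the large ribosomal subunit. In human, SNORD32A is known to guide sites in both small-subunit and large-subunit rRNA, SNORD33 a site in small-subunit rRNA, and SNORD34 and SNORD35A sites in large-subunit rRNA. In mouse cells the snoRNAs of this host are known for a role in the response to lipid overload and oxidative stress. A host that is transcribed as 1 unit yields its snoRNAs from 1 precursor, and the amounts that remain also depend on processing and stability.

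The sequences below show the whole of each member 5′ to 3′ on the minus strand of GRCm38, as in GENCODE M21, because the boxes that class them and the bases between them are what the 4 do and do not share. Capitals mark the C box near the start and the D box near the end.
Snord32a: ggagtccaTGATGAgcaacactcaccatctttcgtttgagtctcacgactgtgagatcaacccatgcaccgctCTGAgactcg
Snord33: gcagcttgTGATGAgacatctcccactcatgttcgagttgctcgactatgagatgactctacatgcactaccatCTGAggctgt
Snord34: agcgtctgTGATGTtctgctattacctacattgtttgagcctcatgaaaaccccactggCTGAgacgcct
Snord35a: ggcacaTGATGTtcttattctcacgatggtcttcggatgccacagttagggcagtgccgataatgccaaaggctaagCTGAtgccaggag

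Snord32a (ENSMUSG00000065219) is 83 bases long and lies at chr7:45127382-45127464 in intron 2 of the host. Snord33 (ENSMUSG00000065628, 84 bases) lies at chr7:45126864-45126947 in intron 4, Snord34 (ENSMUSG00000065878, 70 bases) at chr7:45126601-45126670 in intron 5, and Snord35a (ENSMUSG00000065818, 90 bases) at chr7:45126346-45126435 in intron 6. Introns are counted in the host transcript with 8 exons, and Rpl13a itself spans chr7:45125558-45128761 on the minus strand. The snoRNAs end 107, 69, 63 and 108 bases before the next exon, in the order of the introns. Snord33 overlaps exons of 4 of the 19 annotated host transcripts, and the other members overlap none. The interval of Mir5121 shares 30 bases with Snord33, but it holds 57 reads over all libraries against 165310 for Snord33.

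**Figure D1:**
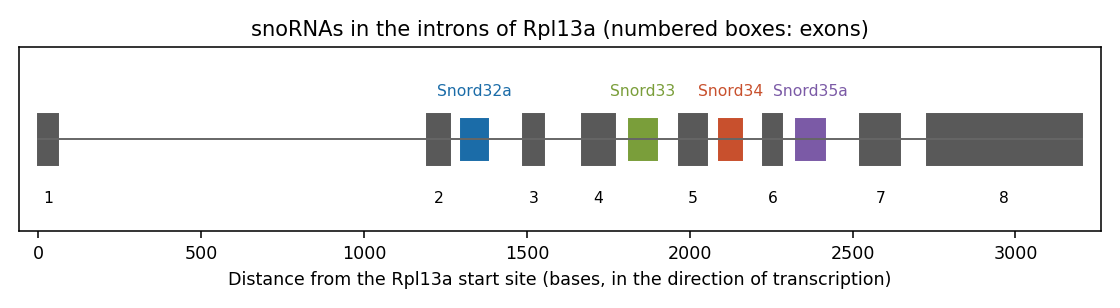
Map of the 8 exons of Rpl13a (grey boxes, numbered) and its 4 snoRNAs (coloured boxes), drawn to scale as distance in bases from the start site in the direction of transcription. Each snoRNA lies in an intron of its own, and intron 1, intron 3 and intron 7 hold none.

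A search on the snoRNA strand for the letters TGATG within the first 20 bases and CTGA within the last 20 found both in 4 of 4 members, against 160 of 406 snoRNA intervals (39.4%) and 0 of 41 intervals named as H/ACA snoRNAs, the class that guides pseudouridylation. The longer form TGATGA was present in Snord32a and Snord33, and 31.8% of snoRNA intervals held it. Between the boxes the members differ. Aligned over their whole length, with gaps allowed and boxes included, their pairwise identity ranged from 53.1% for Snord34 with Snord35a to 66.3% for Snord32a with Snord33. A blastn search of the table found no similar interval for Snord32a or Snord34, so reads of these members have no near-identical copy in the table to be split with. Snord35a resembled 1 other interval (75.0% identity over 88 aligned bases), and since the handling of reads that match 2 places is not given, its reads from the similar stretches are uncertain.

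Totals per library ranged from 8197458 reads in CMP library 1 to 41799906 in CLP library 2. The 4 members together held 0.461% (T library 2) to 0.675% (MEP library 2) of a library. Levels below are CPM (reads scaled to a common library size) on library sizes scaled by the trimmed mean of M values (TMM), with factors from 0.765 to 1.17. The libraries of B and T had the 4 lowest factors, so the choice of scaling bears on comparisons with B and T. Against library totals with no factor, TMM moved the median difference of all 749 tested intervals from -0.58 to -0.13 (log2) for B and T against CLP, and from -0.30 to -0.07 for mature cells against progenitors. Among intervals that averaged 100 CPM or more, the SD of the log2 ratio between the 2 libraries of a population was 0.443 in GMP, 0.519 in MEP and 0.501 in Erythroid, against 0.0466 to 0.0997 in the other 5. In these 3 populations a library was closest to a library of another population, by rank correlation over all tested intervals. Their libraries also left their population means together across numbers, GMP library 1 with Erythroid library 1 and MEP library 2. The correlation of the deviations of same-numbered libraries over the tested intervals was 0.588 for Erythroid with GMP, -0.720 for Erythroid with MEP and -0.588 for GMP with MEP, and the labels used here name nothing that these libraries share. The cause was not tested, and results between these populations are also given without these 3 libraries, a choice made after seeing the data. The members were not among the intervals that differed so much, since their own libraries differed by at most 0.14 on the log2 scale in these 3 populations. As a check of the labels, Mir223 was highest in Myeloid (921 CPM), Mir150 in T (272 CPM) and Mir451a in MEP (152 CPM) and Erythroid (147 CPM), although CLP held 127 CPM of Mir451a. Mir342 was highest in T (63.7 CPM), but B (16.2) was below Myeloid (18.2). The progenitor markers Mir99a, Mir125b-1 and Mir126a were highest in CMP. In CLP and MEP none of them exceeded every mature population. For example, Mir126a had 7.04 CPM in CLP and 9.36 in MEP, against 12.5 in T. In GMP only Mir99a did (5.20 CPM, against 4.65 in Myeloid).

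Per base of their length the 4 members differed widely in level, although they come from 1 host. Averaged over the 8 populations, Snord32a reached 35.4 CPM per base, Snord34 27.9, Snord33 6.18 and Snord35a 0.313. Not divided by length, the means were 2937 CPM for Snord32a, 1950 for Snord34, 519 for Snord33 and 28.2 for Snord35a. These are levels of reads mapped to each interval, and ligation, gel selection and mapping can differ between snoRNAs, so an order of levels is not an order of molecules. Snord32a was read 24277 to 127730 times in a library and Snord34 14144 to 99539 times, so counting error is small for both. Snord33 had 3766 to 22441 reads and Snord35a 200 to 1220. The thinnest value, Snord35a in CMP library 1, was 20.8 CPM with an exact 95% Poisson interval of 16.9 to 25.3, taken on read pairs. Such intervals cover counting error alone, since the reads carry no molecular identifiers.

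Under TMM, Snord32a was highest in the lymphoid cells, and on library totals it was highest in MEP. Its TMM level was 3814 and 3796 CPM in the 2 libraries of B and 3525 and 3606 CPM in those of T. Myeloid had 2569 and 2687 CPM and Erythroid 2551 and 2533 CPM. Among progenitors, CLP had 2830 and 2773 CPM, CMP 2528 and 2622 CPM, GMP 2481 and 2328 CPM, and MEP 3122 and 3234 CPM. On this scale all 4 lymphocyte libraries lay above every other library, with MEP next. On library totals the order turned: MEP had 3275 and 3224 CPM and stood above B, with 3221 and 3058, while T, with 2861 and 2759, was below CLP, CMP and Myeloid. From high to low, the TMM order was B (3805 ± 12.8 CPM), T (3566 ± 56.9), MEP (3178 ± 79.5), CLP (2802 ± 40.3), Myeloid (2628 ± 83.6), CMP (2575 ± 66.7), Erythroid (2542 ± 12.4) and GMP (2405 ± 108; SD, n = 2 each). The libraries of neighbours in that order overlapped for Myeloid with CMP and for CMP with Erythroid, and the highest mean was 1.58 times the lowest. In bulk samples like these, fewer cells of a type and less RNA per cell cannot be told apart.

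Snord34 was ordered otherwise, with MEP at the top on each scale. Under TMM it had 1947 and 2004 CPM in B and 1794 and 1853 CPM in T. Myeloid had 1557 and 1643 CPM and Erythroid 2093 and 2042 CPM. The progenitors had 2159 and 2161 CPM in CLP, 1473 and 1538 CPM in CMP, 1740 and 1673 CPM in GMP, and 2637 and 2881 CPM in MEP. Both MEP libraries stood above every other library, also on totals (2766 and 2872 CPM). Both CMP libraries stood below every other library under TMM, but on totals T was lowest, with 1456 and 1418 CPM, and B next, with 1644 and 1614, against 1725 and 1749 in CMP, and under RLE scaling (DESeq2's size factors) Myeloid averaged 1484 CPM and CMP 1493. The TMM order was MEP (2759 ± 173 CPM), CLP (2160 ± 1.46), Erythroid (2068 ± 36.0), B (1976 ± 40.4), T (1823 ± 41.7), GMP (1706 ± 46.8), Myeloid (1600 ± 60.9) and CMP (1505 ± 46.3; SD, n = 2 each), and no neighbours in it overlapped. Lack of overlap was common over tested intervals, at 46.5% for Erythroid with MEP, 65.3% for T with B and 66.6% for Myeloid with GMP. MEP exceeded CMP 1.83 times, the widest range of the 4 members.

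Under TMM, Snord33 and Snord35a also had their highest mean in MEP and their lowest in CMP, and other scalings moved these ends. Snord33 was highest in MEP (604 ± 26.8 CPM) and lowest in CMP (403 ± 14.8 CPM; SD, n = 2 each), a range of 1.50 times. Between them lay B at 589 CPM, Erythroid at 562, T at 527, CLP at 497, GMP at 485 and Myeloid at 482. MEP could not be separated from B, nor GMP from Myeloid, by libraries that do not overlap. Snord35a was likewise highest in MEP (35.7 ± 1.63 CPM) and lowest in CMP (22.1 ± 1.76 CPM), a range of 1.62 times. On library totals T was the lowest population for both, with 419 and 412 CPM of Snord33 against 459 and 470 in CMP, and with 20.6 and 21.4 CPM of Snord35a against 24.4 and 26.5 in CMP. Under RLE scaling Snord33 was highest in B, at 632 CPM, against 581 in MEP. The other TMM means of Snord35a ran from 25.3 CPM in CLP to 31.5 CPM in Erythroid, and the libraries of Myeloid, B, T, GMP and CLP overlapped from each neighbour to the next.

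**Figure D2:**
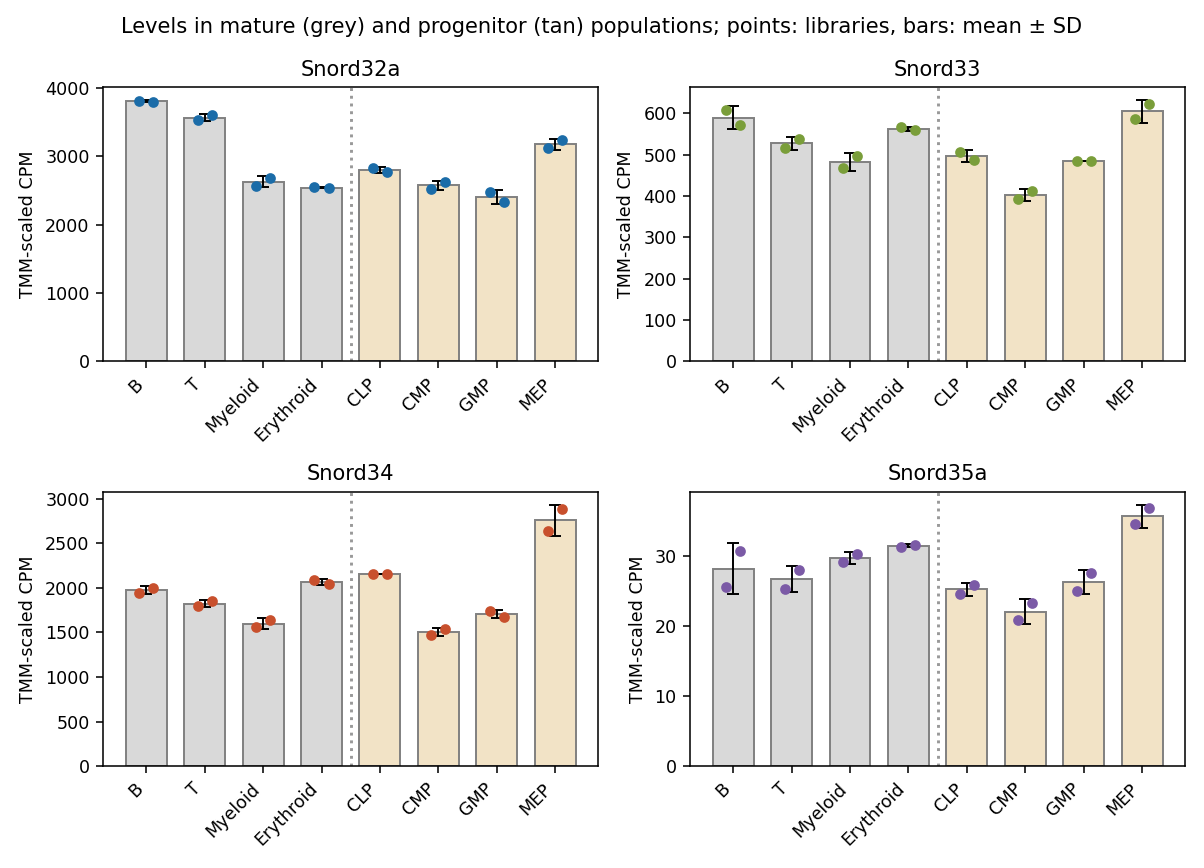
Levels of the 4 Rpl13a snoRNAs in TMM-scaled CPM (y axis, from 0) by population (x axis), mature populations in grey on the left and progenitors in tan on the right. Points are libraries and bars are means with SD (n = 2). On this scale Snord32a is highest in B and T and the other 3 are highest in MEP, whereas on library totals all 4 are highest in MEP and under RLE scaling Snord33 is highest in B.

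All 4 members differed between populations by edgeR's quasi-likelihood F test with Benjamini-Hochberg adjustment over the 749 tested intervals, and so did 61.1% of those intervals. Of the 150 tested C/D box snoRNAs, the members included, 93.3% did. The adjusted p was 1.42e-06 for Snord32a, 1.75e-06 for Snord34, 0.000191 for Snord33 and 0.0150 for Snord35a in this edgeR test. Snord32a, Snord33 and Snord34 passed under each of 28 alternatives of processing. Snord35a missed the threshold in 3 of them, with an adjusted p of 0.0569 under RLE scaling, 0.565 with no filter on low counts and 0.0575 without CMP library 1 (range over alternatives 0.000816 to 0.565).

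The ratio of 2 members within a library is free of any scaling of library size, so it was compared between populations beside the levels. It is not free of gel selection or ligation that varies between libraries, which was not tested. Snord34 has 70 bases and Snord32a 83. Snord34 gave 0.510 and 0.528 reads for each read of Snord32a in B, and 0.509 and 0.514 in T. The same ratio was 0.606 and 0.612 in Myeloid and 0.821 and 0.806 in Erythroid. In the progenitors it was 0.763 and 0.779 in CLP, 0.583 and 0.587 in CMP, 0.701 and 0.719 in GMP, and 0.845 and 0.891 in MEP. B and T were the one pair of populations whose libraries overlapped, and every other pair was apart. Such separation is common for levels of single intervals, at 46.5% of those tested for Erythroid with MEP and 66.6% for Myeloid with GMP. No such share was taken for ratios of other snoRNAs. The mean ratio in MEP was 1.70 times that in T, while the 2 libraries of a population differed by at most 1.05 times. This was so also in GMP, MEP and Erythroid, whose libraries otherwise differed.

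Each mature population had a lower ratio of Snord34 to Snord32a than the progenitor of its branch. It was 0.519 ± 0.0124 in B and 0.511 ± 0.00353 in T, against 0.771 ± 0.0116 in CLP (SD, n = 2 each). Myeloid averaged 0.609 ± 0.00380 and GMP 0.710 ± 0.0125. Erythroid averaged 0.813 ± 0.0102 and MEP 0.868 ± 0.0327, the smallest step of the 3. CMP, the progenitor upstream of GMP and MEP in the usual scheme, had a ratio of 0.585 ± 0.00283, below both. Mature cells as a whole, at 0.509 to 0.821, therefore overlapped the progenitors, at 0.583 to 0.891.

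Read as shares of the 4 members, the same values show Snord32a making up 59.3% to 60.2% of Rpl13a snoRNA reads in the B and T libraries and at most 57.3% elsewhere. Snord34 made up 30.4% to 31.3% in B and T and 41.3% to 42.5% in MEP. Snord33 for each read of Snord32a ranged from 0.146 (T library 1) to 0.222 (Erythroid library 1), and Snord35a from 0.00671 (B library 1) to 0.0125 (Erythroid library 2). For both of these ratios Erythroid had the highest mean, and B or T the lowest. Snord35a for each read of Snord33 ranged from 0.0421 to 0.0624, and its population means differed by at most 1.28 times, about as much as the 2 B libraries did. The B and T libraries, at 0.0421 to 0.0540, lay below those of Myeloid and Erythroid, at 0.0554 to 0.0624.

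**Figure D3:**
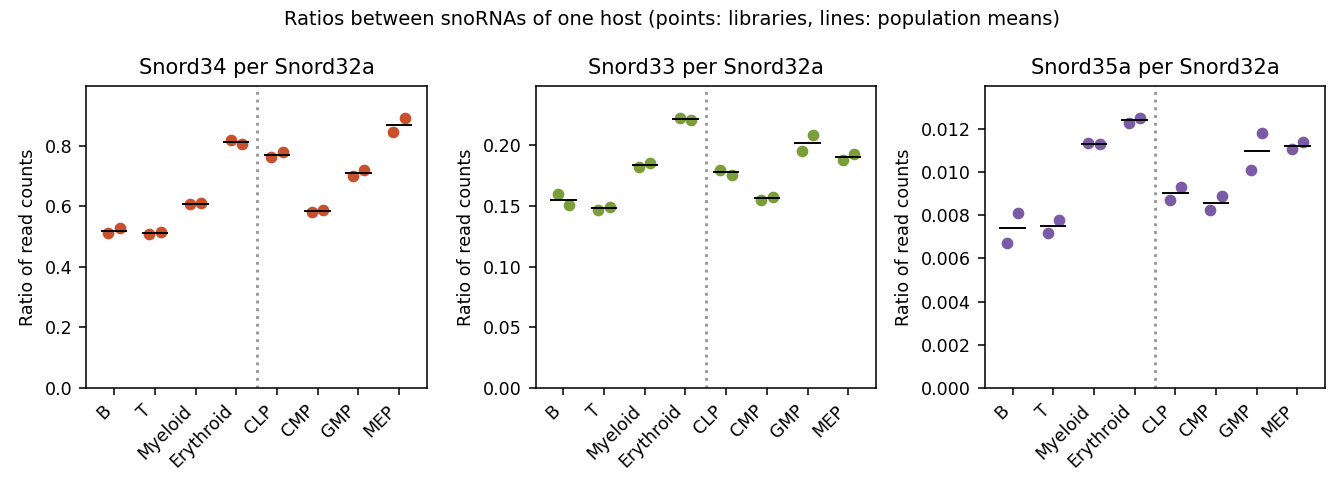
Reads of Snord34, Snord33 and Snord35a for each read of Snord32a (y axes, from 0, a ratio of read counts) in each library by population (x axis). Points are libraries and lines are population means of 2 libraries, with mature populations left of the dotted line. The population means of all 3 ratios are lowest in B and T, and the ratio of Snord34 is highest in MEP at 0.845 and 0.891.

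Mature cells were then set against progenitors, each as the mean of 4 populations. Snord32a was higher in mature cells by 0.18 ± 0.023 (log2 ± SE) under TMM, though 0.05 lower on library totals, and Snord33 was higher by 0.13 ± 0.032, though 0.10 lower on totals. Snord34 was lower, with a difference of -0.09 ± 0.027. In edgeR's quasi-likelihood test the adjusted p was 5.69e-05 for Snord32a, 0.00591 for Snord33 and 0.0171 for Snord34. Snord35a had a difference of 0.11 and an adjusted p of 0.193 in that edgeR test. So 3 of 4 members passed, where 49.8% of all tested intervals did (23.1% higher and 26.7% lower). Among C/D box snoRNAs 75.3% passed, much the same share as among the members. Relative to the median of all intervals under TMM, Snord32a stood at 0.25 and Snord34 at -0.02. These distances hardly move on library totals by construction, because rescaling shifts all intervals nearly alike.

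The spread among populations of a class was wider than these differences. Snord32a ranged from 2533 to 3814 CPM in the 8 mature libraries, median 3106, and from 2328 to 3234 CPM in the 8 progenitor libraries, median 2698. Snord34 ranged from 1557 to 2093 CPM in mature libraries and from 1473 to 2881 CPM in progenitors. The classes overlapped for all 4 members, and 4.27% of tested intervals had no overlap. With each population summed to 1 unit, 4 against 4, edgeR called none of the 4 at an adjusted or an unadjusted p under 0.05 (Snord32a 0.28, adjusted p = 0.479). The call of Snord34 also ended without GMP library 1 (-0.05, edgeR adjusted p = 0.0761), without GMP 1, Erythroid 1 and MEP 2 (edgeR adjusted p = 0.136), under RLE scaling, under DESeq2, with a mean of at least 10 CPM, with snoRNAs alone and without overlapping intervals. With no filter on low counts none of the 4 was called (Snord32a 0.16, edgeR adjusted p = 0.0742).

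In the lymphoid branch, B and T against CLP, Snord32a and Snord34 moved in opposite directions under TMM. Snord32a had 3525 to 3814 CPM in the 4 libraries of B and T, against 2773 and 2830 CPM in CLP. It rose by 0.39 ± 0.040 in log2, with an adjusted p of 1.12e-05 in edgeR's quasi-likelihood test, although library totals gave -0.05. Snord34 had 1794 to 2004 CPM in B and T, against 2159 and 2161 CPM in CLP. It was lower in B and T, at -0.19 ± 0.047 (edgeR adjusted p = 0.00776), and library totals gave -0.64. On neither scale did the libraries of Snord34 in B and T come out above those of CLP.

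Snord33 was higher by 0.16 ± 0.056 in B and T (edgeR adjusted p = 0.0359), but -0.28 on library totals. Snord35a had a difference of 0.12 and an edgeR adjusted p of 0.414. Of the 4 members 3 passed, where 43.3% of tested intervals did (18.0% higher and 25.2% lower), and 3 had libraries that did not overlap, where 48.2% of intervals had none. Among C/D box snoRNAs 74.0% passed. RLE scaling ended the calls of Snord34 and Snord33 (edgeR adjusted p = 0.191 and 0.121), as did DESeq2 (adjusted p = 0.219 and 0.0829). With no filter on low counts all 3 calls ended, that of Snord32a at 0.30 (edgeR adjusted p = 0.0674). Leaving out CLP library 1 or CLP library 2 ended those of Snord33 and Snord34. Leaving out B library 1 or T library 2 ended that of Snord33 (0.14 and 0.15). Leaving out GMP library 1 ended that of Snord34 (-0.07). Without GMP 1, Erythroid 1 and MEP 2 all 4 differences were higher, at 0.52 for Snord32a, 0.29 for Snord33, -0.07 for Snord34 and 0.23 for Snord35a. None of these 3 populations is on a side of this comparison, so their libraries act on it only through the scaling and the shared spread. The SE does not cover such shifts. The call of Snord34 also ended when intervals averaging under 10 CPM, or overlapping ones, were left out (-0.11 and -0.05, edgeR adjusted p = 0.0727 and 0.344).

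In the granulocyte-monocyte branch no member passed. Snord32a had 2569 and 2687 CPM in Myeloid, against 2481 and 2328 CPM in GMP, a difference of 0.13 ± 0.046 with an adjusted p of 0.0551 in edgeR's quasi-likelihood test. Snord34 had 1557 and 1643 CPM in Myeloid, against 1740 and 1673 CPM in GMP, a difference of -0.09 ± 0.054 (edgeR adjusted p = 0.221). These 2 and Snord35a had libraries that did not overlap between Myeloid and GMP, as did 66.6% of all tested intervals. Snord33 was within 0.01 of 0 on the log2 scale. The edgeR count of 0 members compares with 31.8% of tested intervals, 1 member had an unadjusted p under 0.05, and DESeq2 also called 0. Without GMP library 1, Snord32a passed at 0.16 (edgeR adjusted p = 0.0340, range over alternatives 0.000599 to 0.865), and it did so without GMP 1, Erythroid 1 and MEP 2 (edgeR adjusted p = 0.0214) but not without GMP 2, Erythroid 2 and MEP 1 (0.08, edgeR adjusted p = 0.234).

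In the erythroid branch both abundant members were lower in the mature cells. Snord34 had 2093 and 2042 CPM in Erythroid, against 2637 and 2881 CPM in MEP. Snord32a had 2551 and 2533 CPM in Erythroid, against 3122 and 3234 CPM in MEP. Every Erythroid library was below both MEP libraries, also for Snord33 and Snord35a, and so all 4 members had no overlap, where 46.5% of intervals had none. Snord34 fell by 0.42 ± 0.054 and Snord32a by 0.32 ± 0.046 (log2 ± SE), with adjusted p of 0.000713 and 0.00128 in edgeR's quasi-likelihood test. Those are 2 of 4 members, where 9.88% of tested intervals passed and 5.47% were lower.

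Snord33 differed by -0.10 ± 0.065 between Erythroid and MEP (edgeR adjusted p = 0.387) and Snord35a by -0.18 ± 0.13 (edgeR adjusted p = 0.457). Library totals gave the same directions for all 4 members, and no single library ended a call of Snord34 or Snord32a. RLE scaling left Snord34 at -0.39 (edgeR adjusted p = 0.0503) and Snord32a at -0.30 (edgeR adjusted p = 0.118), and DESeq2 called Snord34 alone. With no filter on low counts neither was called (edgeR adjusted p = 0.122 for Snord34 and 0.339 for Snord32a). Without Erythroid library 1, MEP library 2 and GMP library 1, Snord34 differed by -0.41 (edgeR adjusted p = 0.000140) and Snord32a by -0.34 (edgeR adjusted p = 0.000642). Without the other library of each of these populations the values were -0.46 and -0.34, and in both fits the lone libraries are assumed to vary like the other populations. Snord34 passed under 26 of 28 alternatives, with differences from -0.50 to -0.35.

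Among mature cells, B and T were set against Myeloid and Erythroid. Snord32a had 3525 to 3814 CPM in B and T, against 2533 to 2687 CPM in Myeloid and Erythroid, with no overlap, as had 21.9% of tested intervals. The difference was 0.51 ± 0.033 in log2, a 1.43-fold higher level, with an adjusted p of 4.29e-07 in edgeR's quasi-likelihood test. The SE and p rest on scatter between libraries of a population, not between the populations of a side. It passed under all 28 alternatives, from 0.12 on library totals to 0.72. Under TMM it stood 0.83 above the median of all intervals and 0.51 above that of snoRNAs. These distances hardly move under RLE or totals by construction, because rescaling shifts all intervals nearly alike.

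The other members overlapped between these groups. Snord34 differed by 0.06 ± 0.038 (edgeR adjusted p = 0.238), Snord33 by 0.10 ± 0.046 (edgeR adjusted p = 0.114) and Snord35a by -0.16 ± 0.091 (edgeR adjusted p = 0.204). Snord34 and Snord33 turned negative on library totals, at -0.33 and -0.29. Hence 1 of 4 members passed, where 38.6% of tested intervals did and 11.1% were higher. Among C/D box snoRNAs 68.0% passed. Without GMP library 1, which belongs to neither side, the scaling shifted so that Snord33 (0.30) and Snord34 (0.27) passed too.

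T against B gave no call for a member. The differences were -0.09 ± 0.046 for Snord32a, -0.12 ± 0.054 for Snord34, -0.16 ± 0.065 for Snord33 and -0.08 ± 0.13 for Snord35a, with adjusted p from 0.0855 to 0.715 in edgeR's quasi-likelihood test. The libraries of T lay below those of B for all members but Snord35a, and 65.3% of tested intervals had no overlap. In this comparison 28.2% of tested intervals passed, 1 member had an unadjusted p under 0.05, and DESeq2 called 0 members. Library totals called 3, and scaling on snoRNAs alone made all 4 differences positive, from 0.04 to 0.13.

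**Figure D4:**
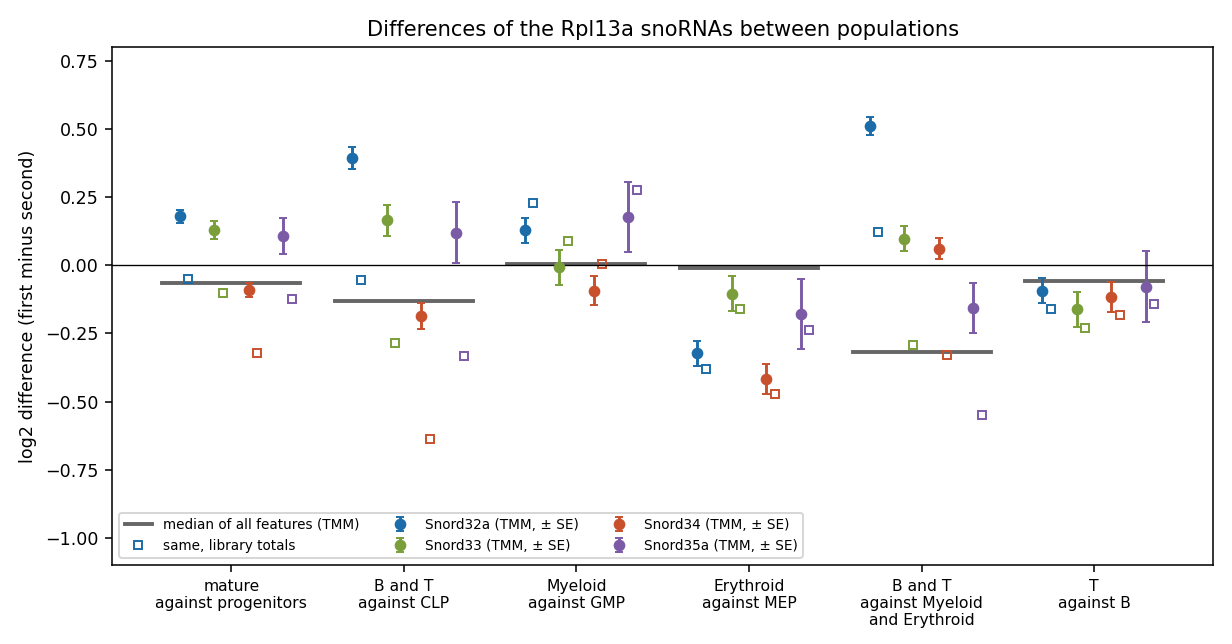
Log2 differences of the 4 Rpl13a snoRNAs (y axis, first-named group minus second) in the 6 comparisons between populations (x axis). Filled points are TMM-scaled edgeR estimates with SE, open squares the same on library totals, and grey bars the median of all 749 intervals under TMM. Snord32a, at 0.51, stands highest above the median for B and T against Myeloid and Erythroid, and in 3 comparisons members higher under TMM turn negative on totals.

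The change on maturation was then compared between branches by contrasts in the same fit. For Snord32a the lymphoid change minus the erythroid change was 0.72 ± 0.061 (adjusted p = 1.64e-05 in edgeR's quasi-likelihood test). The 2 changes were 0.39 and -0.32 under TMM, in opposite directions, and -0.05 and -0.38 on library totals. The contrast between these 2 branches passed under all 28 alternatives, from 0.33 on library totals to 0.89. Snord34 and Snord33 differed there by 0.23 ± 0.072 (edgeR adjusted p = 0.0438) and 0.27 ± 0.086 (edgeR adjusted p = 0.0462), so 3 of 4 members passed, where 21.4% of tested intervals did and 9.48% were positive. Both turned negative on library totals, at -0.16 and -0.12. RLE scaling, DESeq2 and the lack of a low-count filter each ended both calls (adjusted p from 0.181 to 1.00 in edgeR or DESeq2). With 1 library left out at a time, Snord34 passed only without T library 1, GMP library 1, GMP library 2 or MEP library 1, at values from 0.16 to 0.38 over all 16, and Snord33 only without one of these or B library 2, at 0.22 to 0.42.

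Erythroid maturation differed from granulocyte-monocyte maturation by -0.45 ± 0.065 for Snord32a (adjusted p = 0.00119 in edgeR's quasi-likelihood test) and by -0.32 ± 0.077 for Snord34 (edgeR adjusted p = 0.0230). These 2 of 4 members passed, where 9.21% of tested intervals did and 3.60% were negative, and library totals kept both directions at -0.61 and -0.48. DESeq2 and RLE scaling called 0 members in this contrast, with 1 member at an unadjusted p under 0.05 in each, and without a low-count filter edgeR called neither (adjusted p = 0.306 for Snord32a and 0.756 for Snord34). The call of Snord34 ended without Myeloid library 2, Erythroid library 1, Erythroid library 2, GMP library 2 or MEP library 2, at values from -0.34 to -0.26. Without GMP 1, Erythroid 1 and MEP 2 the erythroid contrast was -0.50 for Snord32a and -0.33 for Snord34. Without GMP 2, Erythroid 2 and MEP 1 it was -0.43 and -0.34, and both fits leave these populations 1 library each. Lymphoid maturation differed from granulocyte-monocyte maturation for Snord32a, by 0.27 ± 0.061 (edgeR adjusted p = 0.0112), which was -0.28 on library totals. That was 1 of 4 members, where 17.9% of tested intervals passed and 8.81% were positive. It missed the threshold under RLE scaling (edgeR adjusted p = 0.125), DESeq2 (adjusted p = 0.114), with no low-count filter (edgeR adjusted p = 0.945) and with snoRNAs alone (0.14, edgeR adjusted p = 0.0903). It also missed it without Myeloid library 1 or CLP library 2, with an edgeR adjusted p of 0.0584 and 0.0569.

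The other snoRNAs in ribosomal protein genes give a setting for these counts: 54 intervals in 29 host genes, of which 51 were tested. In Erythroid against MEP, where Snord32a and Snord34 fell, 4 of the 51 were higher and 1 lower, with a median log2 difference of 0.00. The 4 Rpl13a members had a median of -0.25, against -0.01 over all 749 intervals. Of 150 C/D box snoRNAs, the Rpl13a members included, 15 were higher and 19 lower there, which is 22.7% called. Of the same 150, 46.7% passed in Myeloid against GMP and 56.0% in T against B. For lymphoid against erythroid maturation 56.7% of them passed. The share was 41.3% for lymphoid and 26.0% for erythroid maturation, each against granulocyte-monocyte maturation. In mature cells against progenitors, 16 of the 51 were higher and 16 lower (median -0.04), and in B and T against Myeloid and Erythroid 13 were higher and 12 lower (median 0.01). The medians of the Rpl13a members were 0.12 and 0.08 in those 2 comparisons, and those of all intervals -0.07 and -0.32.

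Opposite directions within 1 host were common among the calls of the main test. There were 52 hosts with 2 or more snoRNAs in the test, and 23 of them held, under TMM, both a higher and a lower one in mature cells against progenitors. Rpl13a was among the 23 through Snord34, whose call ended under the settings named above. The count takes libraries as replicates, and with populations as units edgeR called 21 intervals against 373 in this comparison. The widest gap between members of Rpl13a was 0.27 log2 in that comparison, and 39 hosts had a wider one (median over hosts 0.69). For B and T against Myeloid and Erythroid the gap within Rpl13a was 0.67, and 27 hosts had a wider one (median 0.69).

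Across the 8 population means, Snord33 followed Snord35a (r = 0.82) and Snord34 (r = 0.80), and Snord34 followed Snord35a (r = 0.72), while Snord32a was less like Snord33 (r = 0.59), Snord34 (r = 0.37) and Snord35a (r = 0.21). These Pearson correlations of log2 CPM describe 8 points that share libraries and scaling. Among the 708 tested intervals with reads in every population, the patterns most like Snord32a outside the host were those of Snora65 in Rpl12 (r = 0.85), Gm22354 (r = 0.85) and Gm22192 in Prrc2b (r = 0.83), all 3 highest in B or T under TMM. For Snord33 they were Gm24336 in Cwf19l1 (r = 0.87), Snord42a in Rpl23a (r = 0.86) and Gm24949 (r = 0.85), and for Snord34 Snord49b (r = 0.80), Gm25789 in Gas5 (r = 0.79) and Gm22059 in Med24 (r = 0.78). For Snord35a they were Gm25776 in Gtf2a1 (r = 0.83), Gm24260 (r = 0.82) and Mir34a (r = 0.80), all under 3 CPM on average, where counting error is large. The same limit holds for Gm24949, at 0.475 CPM. Gm24336 (4.81 CPM), Snora65 (5.63 CPM) and Gm22059 (7.42 CPM) were also low.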

How the data were processed

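Small RNA from 16 libraries of 8 sorted bone marrow populations was analysed from the deposited tables of raw counts, 1 per library. Per the labels' protocols, Trizol RNA was made into libraries with a NEBNext small RNA kit, gel-selected for snoRNA length and sequenced on a NovaSeq. The submitters' processing notes name Trimmomatic 0.38, Bowtie2 2.3.4.1 and GRCm38; the counting program, its annotation, its use of strand and its handling of reads with several matches are not given in the sources used here. Each table lists intervals with reads, so a missing interval was taken as 0, and 89.0% to 93.2% of listed values were even, as when both mates of a pair are counted.

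Intervals were matched by exact coordinates to GENCODE M21, and hosts were taken by position on the same strand. The test was edgeR's quasi-likelihood test (version 4.0.16, R 4.3.3). Its filterByExpr step (grouped by population, minimum count 10) kept 749 intervals, library sizes were scaled by TMM, and each population had its own mean, with 8 residual degrees of freedom. Adjusted p-values are Benjamini-Hochberg over the 749, with a threshold of 0.05. SE is the log2 difference over the square root of F. The fit shares 1 spread per interval over all populations although pairs of libraries differed in theirs. The test was tried on simulated counts with known changes. Similar intervals were sought with blastn 2.17.0. Members, gene lists and comparisons were chosen with earlier results of these data known. All 4 members were named in every comparison, with the 3 intervals most correlated with each. The interval that shares a family name with a member is not reported here. Alternatives were RLE scaling, library totals, other filters, DESeq2 1.42.0, snoRNAs alone, overlapping intervals left out, halved counts, a replicate block, populations as units and leaving out libraries. Same-numbered libraries were not treated as pairs in the main test, because the labels do not say whether they belong together. Over 28 pairs of populations the correlation of their deviations ran from -0.720 to 0.588, and 15 exceeded 0.1.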

Additional observations from a re-analysis of the deposited data

Results flagged for a closer look

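In 6 tests of the difference between branches, the change of an Rpl13a snoRNA on maturation differed past the threshold of edgeR's quasi-likelihood test. Against erythroid maturation, lymphoid maturation was higher by 0.72 for Snord32a (adjusted p = 1.64e-05, edgeR), by 0.27 for Snord33 (adjusted p = 0.0462, edgeR) and by 0.23 for Snord34 (adjusted p = 0.0438, edgeR), in log2. Against granulocyte-monocyte maturation, it was higher by 0.27 for Snord32a (adjusted p = 0.0112, edgeR). Erythroid maturation against granulocyte-monocyte maturation gave -0.45 for Snord32a (adjusted p = 0.00119, edgeR) and -0.32 for Snord34 (adjusted p = 0.0230, edgeR). Of these, the value for Snord32a between the lymphoid and erythroid branches passed under every alternative run, while those of Snord33 and Snord34 there changed sign on library totals, as did that of Snord32a between the lymphoid and granulocyte-monocyte branches.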

How the results depend on the processing

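Under 29 other settings, 958 of 1124 member differences kept their direction and side of the threshold, 86 lost the call, 38 gained it and 42 changed sign. Those of Snord32a between B and T and Myeloid and Erythroid, and between lymphoid and erythroid maturation, passed under the 28 settings run for them. Populations as units were run for mature against progenitors alone, where Snord32a lost its call. The depth limits Snord35a, at 200 to 1220 reads a library. Except where stated, the cause of a change was not tested. Settings that leave out 3 libraries named by number, not first libraries, were chosen after seeing the data.

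Library totals changed most signs (log2). Mature against progenitors gave -0.052 for Snord32a, -0.10 for Snord33 and -0.13 for Snord35a, and B and T against CLP -0.054, -0.28 and -0.33. Myeloid against GMP gave 0.0059 for Snord34 and 0.091 for Snord33, with 1 member called against 0. B and T against Myeloid and Erythroid gave -0.33 for Snord34 and -0.29 for Snord33, with 4 called against 1. T against B had 3 called against 0. Lymphoid against granulocyte-monocyte maturation gave -0.28 for Snord32a and -0.37 for Snord33, with 4 called against 1. Lymphoid against erythroid maturation gave -0.16 for Snord34, -0.12 for Snord33 and -0.094 for Snord35a. The split of all intervals, higher to lower, was 173 to 200 under TMM and 107 to 309 on totals for mature against progenitors, 135 to 189 and 59 to 312 for B and T against CLP, and 83 to 206 and 32 to 364 for B and T against Myeloid and Erythroid.

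RLE scaling and DESeq2 each called 1 member against 3 for B and T against CLP, 3 against 1 for B and T against Myeloid and Erythroid (Snord35a 0.025 in both), 0 against 1 for lymphoid against granulocyte-monocyte maturation (Snord35a 0.00019 with RLE), 1 against 3 for lymphoid against erythroid maturation and 0 against 2 for erythroid against granulocyte-monocyte maturation. For Erythroid against MEP, RLE called 0 and DESeq2 1, against 2. With no filter on low counts 0 members were called against 3 for mature against progenitors, 0 against 3 for B and T against CLP, 0 against 2 for Erythroid against MEP, 0 against 1 for lymphoid against granulocyte-monocyte maturation, 1 against 3 for lymphoid against erythroid maturation and 0 against 2 for erythroid against granulocyte-monocyte maturation. At an unadjusted p under 0.05 these 0 counts were 1, 2, 2, 0 and 1, and with RLE they were 2 for Erythroid against MEP and, as with DESeq2, 1 for each of the branch contrasts. With populations as units edgeR called 0 members against 3 (0 unadjusted) and 21 intervals against 373.

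A mean of at least 10 CPM gave 1 member against 0 for Myeloid against GMP (Snord33 0.0051), 3 against 1 for B and T against Myeloid and Erythroid, 2 against 1 for lymphoid against granulocyte-monocyte maturation (Snord35a 0.0024), and 0.0033 for Snord35a in T against B. SnoRNAs alone gave 1 against 0 for Myeloid against GMP (Snord34 0.025, Snord33 0.11), 2 against 1 for B and T against Myeloid and Erythroid, and 0.11, 0.088, 0.042 and 0.13 for Snord32a, Snord34, Snord33 and Snord35a in T against B. Overlapping intervals left out gave 3 against 1 for B and T against Myeloid and Erythroid (Snord35a 0.047) and 2 against 1 for lymphoid against granulocyte-monocyte maturation (Snord34 0.058, Snord35a 0.091).

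The first GMP, MEP and Erythroid libraries left out, or GMP 1, Erythroid 1 and MEP 2, each gave 1 against 0 for Myeloid against GMP, 3 against 1 for B and T against Myeloid and Erythroid (Snord35a 0.037) and 2 against 1 for lymphoid against granulocyte-monocyte maturation (Snord34 0.012, Snord35a 0.14). GMP 2, Erythroid 2 and MEP 1 left out gave 1 against 0 for T against B. Leaving out 1 library at a time gave 1 to 3 members for B and T against CLP, 0 to 1 for Myeloid against GMP, 1 to 3 for B and T against Myeloid and Erythroid, 0 to 1 for lymphoid against granulocyte-monocyte maturation, 1 to 3 for lymphoid against erythroid maturation and 1 to 2 for erythroid against granulocyte-monocyte maturation. It gave Snord33 -0.053 to 0.037 in Myeloid against GMP, Snord35a -0.23 to 0.045 in B and T against Myeloid and Erythroid, -0.21 to 0.060 in T against B and -0.13 to 0.14 in lymphoid against granulocyte-monocyte maturation (0.0055 without B 1), and Snord34 -0.13 to 0.013 there.

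With the replicate number as a block, 2 members were called against 3 for lymphoid against erythroid maturation, and the member counts of the other 9 comparisons were the same. The labels do not say whether the numbers pair libraries.

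Counts of called intervals moved over 1.5 times under some settings, in part because fewer were tested. The mean of 10 CPM gave 287 against 458 over all populations, 218 against 373 for mature against progenitors, 194 against 324 for B and T against CLP and 191 against 289 for B and T against Myeloid and Erythroid, and snoRNAs alone 227, 188, 173 and 148 in these 4, 120 against 238 for Myeloid against GMP and 117 against 211 for T against B. Erythroid against MEP had 74, against 39 with RLE, 49 unfiltered and 114 to 228 with 3 libraries left out. T against B had 319 to 326 with 3 left out, lymphoid against granulocyte-monocyte maturation 218 to 264 against 134 (264 on totals), lymphoid against erythroid maturation 244 and 283 against 160 (99 unfiltered) and erythroid against granulocyte-monocyte maturation 164 to 195 against 69 (28 with RLE). With 1 library left out, B and T against CLP had 212 without CLP 2, Myeloid against GMP 156 and 136 without either Myeloid library, Erythroid against MEP 47 without Erythroid 2, lymphoid against granulocyte-monocyte maturation 79 without CLP 2 and erythroid against granulocyte-monocyte maturation 44 without Myeloid 1.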
